A study of Mus musculus with 6 samples.

Results

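The sterol and fatty acid synthesis genes were examined in cultured mouse podocytes that overexpressed the long non-coding RNA Dlx6-os1. The 36 members were chosen by gene symbol from the known pathways, by a rule that used no measured value, though with earlier results of these data known. Of these, 35 were found among the 11308 gene symbols of the deposited transcript table, and Scd1 was not analysed here. The members fell into 18 enzymes of the sterol branch, 11 measured enzymes of the fatty acid branch, 5 regulators and 1 sterol transport gene.

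The cells were MPC5, a mouse podocyte line, grown in 1640 medium under normal culture conditions, with the strain given as C57BL/6 and the tissue as kidney. There were 3 overexpression samples and 3 control samples, and the labels gave the control genotype as WT in replicates 1 and 2 while control replicate 3 carried no genotype label. The labels described lentiviral infection with dlx6-os1 or with a vector without insert, whereas the methods of the study described an adenovirus compared with normal controls, so that the vector carried by the controls was not settled. All samples came from 1 cell line, and the sources used here did not say whether replicates were separate cultures. The tests below therefore measured only the spread between these samples.

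Podocytes are the epithelial cells that wrap the glomerular capillaries, and they keep a large membrane surface rich in cholesterol. Animal cells build cholesterol from acetyl-CoA through mevalonate, farnesyl diphosphate, squalene and lanosterol, and build fatty acids from the same acetyl-CoA through malonyl-CoA. Both branches are controlled by the membrane-bound factors SREBP-1 and SREBP-2, which Scap carries to the Golgi for release when sterols are low and which the Insig proteins hold back in the endoplasmic reticulum.

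The proximal promoters of these genes are shown first, because SREBP is known to act there together with NF-Y, which binds CCAAT boxes, and Sp1, which binds GC boxes. RefSeq starts (GRCm38.p6) were matched for 29 of the 36 members, and Fads1, Fdft1, Fdps, Scd1, Scd2, Sqle and Stard4 were not matched. In the 250 bases before each start, on both strands, CCAAT occurred in 23 of the 29 members (79.3%) and in 41.2% of the 8647 measured genes with a match. A gene with several RefSeq starts was counted if any of its windows held the word. The CCAAT matches of Dhcr7 and Me1 lay only before starts inside the gene. The letters GGGCGG occurred in 24 of the 29 members (82.8%) and in 66.7% of the measured genes. By branch, each of these words was found in 14 of 15 matched sterol enzymes and in 5 of 9 matched fatty acid enzymes. The longer word TCACNCCAC, a form of the sterol regulatory element, was found in 1 of the 29 members, Hmgcs1, and in 1.19% of the measured genes. Matches of different words overlapped in 1 gene, Elovl1, where a CCAAT and a GC box shared bases. A match was a description of the letters, and its absence from a window says nothing of binding.

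Hmgcs1 is printed because it was the member that held all 3 words, with the match to the sterol regulatory element, a CCAAT box and a GC box in capitals. For the other genes the 100 bases before a RefSeq start are shown, since their listed transcripts with different starts had different values (below), with CCAAT and GC boxes in capitals.
Hmgcs1, chr13:119690169-119690293, plus strand: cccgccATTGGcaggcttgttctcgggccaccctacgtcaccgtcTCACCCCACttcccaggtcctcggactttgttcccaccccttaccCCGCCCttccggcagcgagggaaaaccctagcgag
Dhcr7, start of Dhcr7-201, chr7:143823067-143823166, plus strand: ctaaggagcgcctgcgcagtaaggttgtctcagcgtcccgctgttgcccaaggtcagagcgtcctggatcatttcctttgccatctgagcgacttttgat
Srebf1, near the start of Srebf1-005, chr11:60220628-60220727, minus strand: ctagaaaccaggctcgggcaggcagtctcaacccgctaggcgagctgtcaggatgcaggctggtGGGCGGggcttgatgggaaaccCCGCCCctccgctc
Srebf1, near the start of Srebf1-007, chr11:60210472-60210571, minus strand: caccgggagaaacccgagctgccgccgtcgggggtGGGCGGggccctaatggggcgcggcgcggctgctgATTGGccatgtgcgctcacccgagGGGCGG
The printed stretch before Dhcr7-201 held none of the words, but a GC box lay farther upstream within the 250 bases searched, 148 to 143 bases before the start. The printed stretches before the Srebf1 starts held GC boxes in both cases and a CCAAT box before Srebf1-007.

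Expression was deposited as FPKM per transcript, which is scaled for transcript length and library size, and the transcripts of a gene were summed. The sums of listed FPKM lay between 329402 and 371806 per sample, but the number of reads behind a value was unknown. Of 8 podocyte markers, 4 were measured (Synpo, Podxl, Cd2ap and Actn4), with summed levels of 247 to 316 FPKM in controls and 302 to 319 FPKM in overexpression samples, while Nphs1, Ptpro, Tcf21 and Magi2 were not analysed here. Tubule markers differed between the groups. The 3 measured of 9 (Lrp2, Aqp1 and Cdh16) summed to 337 to 532 FPKM in controls and 103 to 282 FPKM in overexpression samples, all 3 passing the call rule as lower, and their part in the results below was not tested. Of 5 mesangial and fibroblast markers, the 2 measured (Pdgfrb and Gata3) summed to 14.5 to 15.6 FPKM in controls and 7.37 to 11.8 FPKM in overexpression samples. Both were below every control, and Gata3 was called lower (log2 change -1.09), and their part in the results was not tested either. None of 5 endothelial markers was measured, 1 of 5 leukocyte markers was (Cd68), and of 5 adipocyte and hepatocyte markers only Alb was listed, at 0.300 to 0.668 FPKM. In bulk RNA, fewer cells of a type and less RNA per cell cannot be told apart. Dlx6-os1 itself was not analysed here, so its overexpression was not checked from these values and the groups rest on the labels. Genes were called at a fold over 1.5 together with a p under 0.05, the cut-offs named in the study's methods, both here from limma on log2(FPKM + 1). The p of this rule was left unadjusted here, since the methods did not say whether it was adjusted. Over all genes this rule called 282 higher and 252 lower, or 228 higher and 314 lower when each sample was centred on its median.

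Among the sterol and fatty acid genes, the sterol reductase gene Tm7sf2 was the single member that passed the call rule after Dlx6-os1 overexpression. Of the 35 measured members, 1 was called higher beside 2.49% of all genes, and 0 were called lower beside 2.23% of all genes. An unadjusted p under 0.05 was reached by 1 member beside 9.16% of all genes. An adjusted p under 0.05 was reached by 0 members beside 0.0354% of all genes. The overexpression samples were all above the controls for 3 members (Tm7sf2, Me1 and Elovl5) beside 10.1% of all genes, and all below them for 0 members beside 6.24% of all genes. The log2 changes ran from -0.51 (Fdps) to 0.96 (Tm7sf2), with 11 members above 0 and 24 below. With 3 samples against 3 the intervals were wide, and for 15 members, Tm7sf2 included, the 95% confidence interval reached past a 1.5-fold change.

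**Figure D1:**
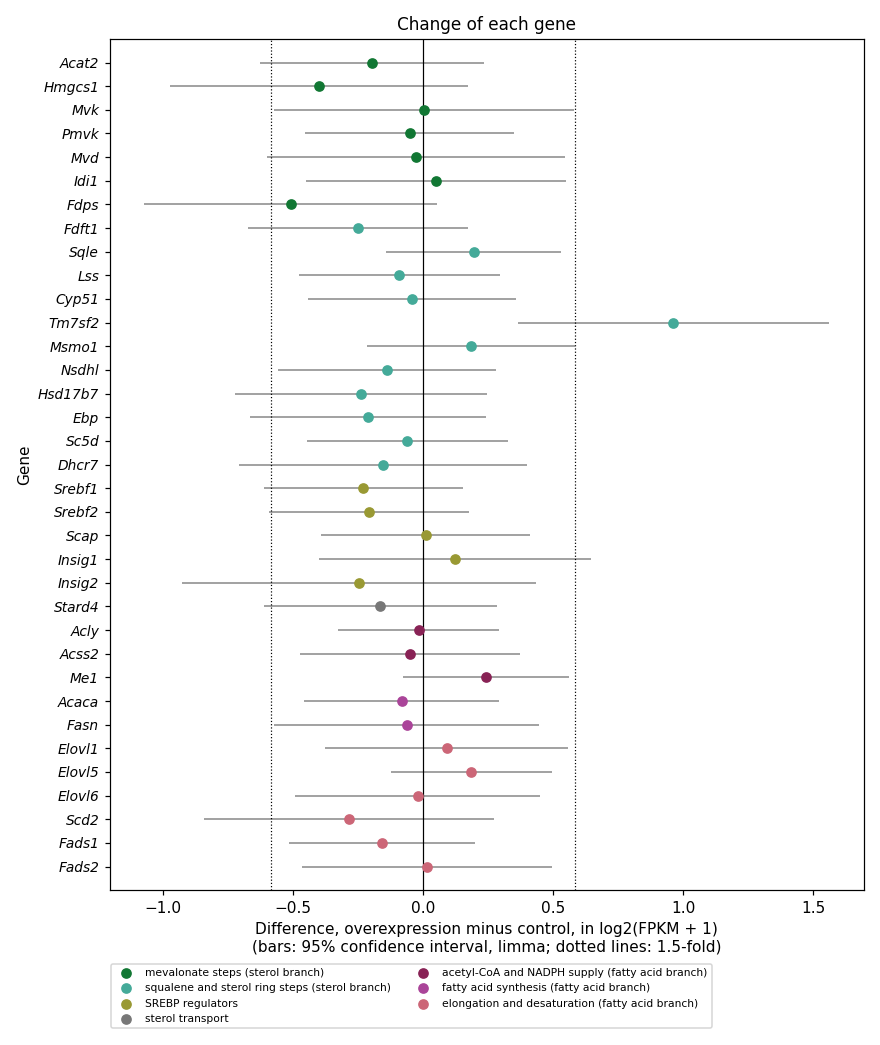
Change of each measured gene between overexpression (n = 3) and control (n = 3) samples in log2(FPKM + 1), with 95% confidence intervals from limma, coloured by role, and dotted lines at 1.5-fold. The interval of Tm7sf2 (0.36 to 1.56) lies above 0, and the intervals of the other 34 genes include 0.

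The 7 genes of the mevalonate steps carry acetyl-CoA to farnesyl diphosphate. None was called, and their median log2 change was -0.05. Fdps, the synthase of farnesyl diphosphate, had the lowest log2 change of all members. Its levels were 108, 159.6 and 221 FPKM in control replicates 1, 2 and 3 and 119, 105 and 105 FPKM in overexpression replicates 1, 2 and 3. The groups overlapped because control replicate 1 lay among the overexpression samples, and the controls spread far more (SD 56.8) than the overexpression samples (SD 8.02). The log2 change was -0.51 (SE 0.25, 95% CI -1.07 to 0.05, limma adjusted p = 0.58). Without control replicate 1 the log2 change of Fdps was -0.78 and it passed the call rule as lower (limma adjusted p = 0.22), and without control replicate 3 it was -0.26.

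Hmgcs1, which makes the HMG-CoA that feeds mevalonate, was at 64.9, 42.1 and 44.9 FPKM in the controls and at 46.8, 42.3 and 26.2 FPKM in the overexpression samples. Control replicate 1 was the highest and overexpression replicate 3 the lowest, and the remaining samples overlapped (log2 change -0.40, SE 0.25, limma adjusted p = 0.66). Acat2, the cytosolic thiolase that starts the pathway, was at 27.4, 33.2 and 40.3 FPKM in the controls and at 29.5, 24.3 and 33.5 FPKM in the overexpression samples, with overlapping groups (log2 change -0.20, SE 0.19, limma adjusted p = 0.80). The kinases Mvk and Pmvk, the decarboxylase Mvd and the isomerase Idi1 had log2 changes between -0.05 and 0.05. Their mean levels were 20.4 and 19.7 FPKM for Mvk, 27.6 and 26.4 FPKM for Pmvk, 22.9 and 21.5 FPKM for Mvd and 9.56 and 9.73 FPKM for Idi1, in controls and overexpression samples in that order.

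The 11 genes of the squalene and sterol ring steps make squalene, close it into lanosterol and turn lanosterol into cholesterol. Tm7sf2, a reductase that acts on the sterol ring after Cyp51, was called higher and the other 10 were not called. It lies on chr19:6062821-6067842 (mm10, minus strand). Its levels were 3.61, 1.29 and 2.84 FPKM in the controls and 5.68, 5.40 and 6.04 FPKM in the overexpression samples. Every overexpression sample was above every control, at a low level (log2 change 0.96, SE 0.26, 95% CI 0.36 to 1.56, limma adjusted p = 0.43). The change of Tm7sf2 on this scale was still smaller than the range among the controls, in which control replicate 2 was lowest, and without that sample it was 0.67 (limma adjusted p = 0.85). The call was kept under each of the 18 other settings tried, of which the one without a filter repeated the main fit.

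Tm7sf2 abuts Vps51, a gene of vesicle tethering on the same strand, whose transcript Vps51-001 ends at the base where Tm7sf2 starts. Reads near this border could have been assigned to either gene. None of the 4 listed Vps51 transcripts was called, and the most abundant, Vps51-201, had a log2 change of 0.03. Vps51-001, the one that meets Tm7sf2, was at 0.457, 0.260 and 0.538 FPKM in the controls. In the overexpression samples it was at 0.721, 2.31 and 0.412 FPKM (log2 change 0.50). Assignment of reads at this border was not tested. Within Tm7sf2, the transcript Tm7sf2-001 was at 2.16, 0.0194 and 0.639 FPKM in the controls and at 2.01, 3.84 and 3.59 FPKM in the overexpression samples, and overlapped between groups because control replicate 1 was above overexpression replicate 1.

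Among the genes next in rank, Fdft1, the squalene synthase, was at 27.4, 35.6 and 44.2 FPKM in the controls and at 30.7, 28.7 and 28.5 FPKM in the overexpression samples, so that control replicate 1 was the lowest of all (log2 change -0.25, SE 0.19, limma adjusted p = 0.71). Sqle, the epoxidase and a rate-limiting step of the branch, was at 26.0, 22.6 and 28.6 FPKM in the controls and at 31.5, 28.3 and 28.7 FPKM in the overexpression samples. The groups met at control replicate 3 (log2 change 0.19, SE 0.15, limma adjusted p = 0.72). Fdft1 and Sqle, which act in sequence, thus had opposite signs, neither of them beyond the spread between replicates.

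The remaining ring genes had log2 changes between -0.24 and 0.18. The cyclase Lss averaged 8.37 FPKM in controls and 7.73 FPKM in overexpression samples, and the demethylase Cyp51 averaged 34.9 and 33.6 FPKM in the same order. Msmo1, Nsdhl and Hsd17b7, which together remove methyl groups from the ring, averaged 23.2, 14.0 and 7.69 FPKM in controls and 26.4, 12.6 and 6.36 FPKM in overexpression samples, so that Msmo1 was above and the other genes below their control means. The isomerase Ebp averaged 32.7 and 27.6 FPKM, the desaturase Sc5d 27.7 and 26.4 FPKM, and Dhcr7, the reductase of the last step of one route to cholesterol, 16.02 and 13.7 FPKM, in controls and overexpression samples.

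**Figure D2:**
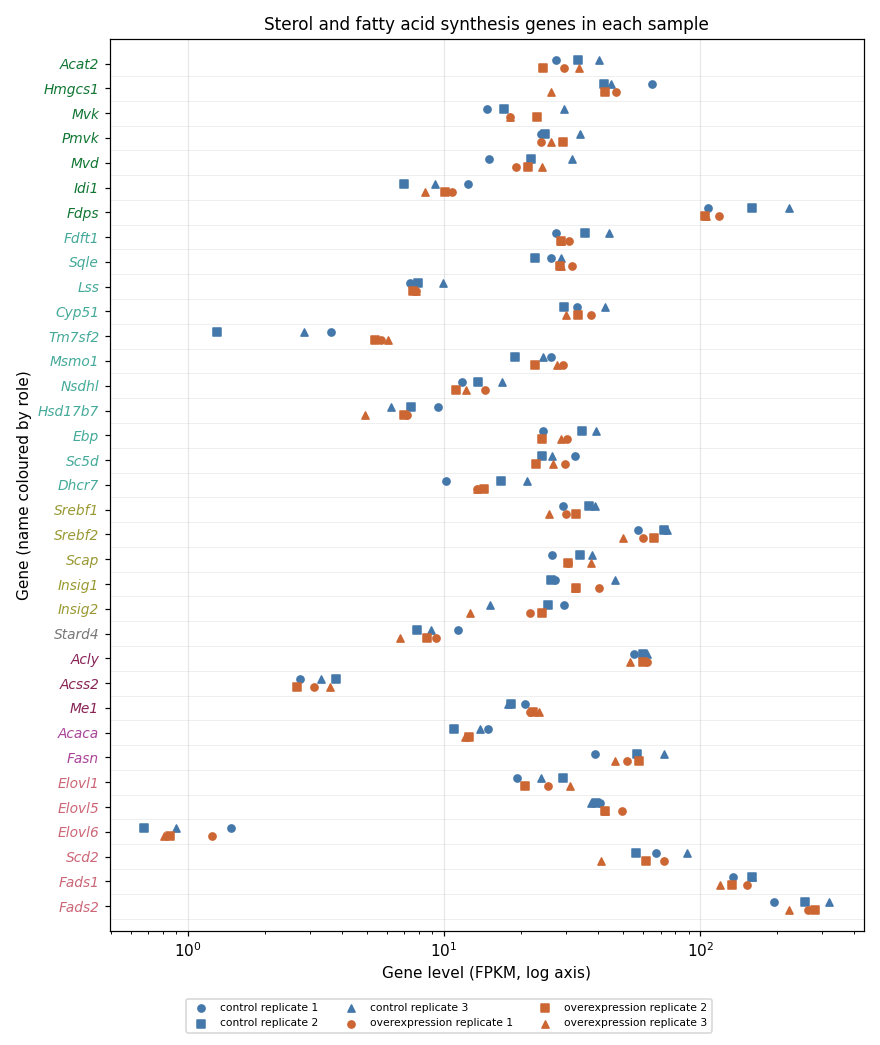
Level of each measured gene in each sample, in FPKM on a log axis, with controls in blue and overexpression samples in orange, 1 symbol shape per replicate number and gene names coloured by role. The 3 overexpression samples of Tm7sf2, Me1 and Elovl5 sit to the right of the 3 controls, and the groups overlap for every other gene.

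Of the 5 regulators none was called, and their median log2 change was -0.21. Srebf1, which encodes SREBP-1 and favours fatty acid genes, was at 29.0, 36.7 and 38.8 FPKM in the controls and at 29.9, 32.8 and 25.7 FPKM in the overexpression samples (log2 change -0.23, SE 0.17, limma adjusted p = 0.71). Srebf2, which encodes SREBP-2 and favours sterol genes, was at 57.3, 72.5 and 74.2 FPKM in the controls and at 59.9, 66.2 and 50.1 FPKM in the overexpression samples (log2 change -0.21, SE 0.17, limma adjusted p = 0.74). In both genes control replicate 1 lay among the overexpression samples while control replicates 2 and 3 were above them all. Insig2 was at 29.3, 25.5 and 15.1 FPKM in the controls and at 21.7, 24.0 and 12.7 FPKM in the overexpression samples, with replicate 3 lowest in both groups (log2 change -0.25, SE 0.30, limma adjusted p = 0.85). The log2 changes were 0.12 for Insig1, itself a well-known SREBP target, and 0.01 for Scap. Stard4, a cytosolic sterol carrier, was at 11.3, 7.83 and 8.88 FPKM in the controls and at 9.28, 8.60 and 6.72 FPKM in the overexpression samples (log2 change -0.17, SE 0.20, limma adjusted p = 0.85).

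None of the 11 measured fatty acid enzymes was called. Me1, the cytosolic malic enzyme that supplies NADPH, was at 20.7, 18.2 and 17.8 FPKM in the controls and at 21.8, 22.2 and 23.4 FPKM in the overexpression samples. The groups did not overlap, with control replicate 1 and overexpression replicate 1 close together (log2 change 0.24, SE 0.14, limma adjusted p = 0.64). Acly, which releases cytosolic acetyl-CoA from citrate, was at 55.3, 59.7 and 62.2 FPKM in the controls and at 61.7, 60.0 and 53.3 FPKM in the overexpression samples, and its log2 change was -0.02. Acss2, which makes acetyl-CoA from acetate, was low in this line, at 2.73, 3.80 and 3.30 FPKM in the controls and at 3.11, 2.66 and 3.59 FPKM in the overexpression samples (log2 change -0.05).

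Acaca, the carboxylase that makes malonyl-CoA, was at 14.9, 10.95 and 13.9 FPKM in the controls and at 12.4, 12.5 and 12.1 FPKM in the overexpression samples (log2 change -0.08, SE 0.16, limma adjusted p = 0.92). Fasn, the fatty acid synthase, was at 38.8, 56.6 and 72.0 FPKM in the controls and at 51.8, 57.5 and 46.6 FPKM in the overexpression samples (log2 change -0.06, SE 0.22, limma adjusted p = 0.95). For both enzymes all 3 overexpression samples lay within the range of the controls.

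Elovl5, an elongase of polyunsaturated fatty acids, was at 40.7, 39.4 and 37.6 FPKM in the controls and at 49.4, 42.6 and 42.4 FPKM in the overexpression samples. The groups did not overlap, with overexpression replicate 1 furthest from the controls (log2 change 0.18, SE 0.14, limma adjusted p = 0.71). Scd2, a stearoyl-CoA desaturase, was at 67.3, 56.0 and 88.8 FPKM in the controls and at 72.3, 61.6 and 41.2 FPKM in the overexpression samples (log2 change -0.28, SE 0.24, limma adjusted p = 0.77). Its close paralog Scd1 was not analysed here, and reads shared by such paralogs may have been split between them. Fads1, which desaturates polyunsaturated fatty acids, was at 135, 159 and 159 FPKM in the controls and at 152, 134 and 119.9 FPKM in the overexpression samples (log2 change -0.16, SE 0.16, limma adjusted p = 0.80). Fads2, which acts in the same route, had the highest mean level per length of all members, 256 FPKM in controls and 255 FPKM in overexpression samples. The elongases Elovl1 and Elovl6 had log2 changes of 0.09 and -0.02, and Elovl6 had the lowest mean level of the members, 1.02 FPKM in controls.

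The branches were then compared sample by sample. The median log2 change was -0.08 for the 18 sterol enzymes, with 5 above 0, and -0.02 for the 11 fatty acid enzymes, with 4 above 0. It was 0.03 for all genes, of which 6129 were above 0. Relative to the mean of the controls, the median of the sterol enzymes was -0.17, -0.10 and 0.26 in control replicates 1, 2 and 3 and -0.08, -0.10 and -0.12 in the overexpression samples. The overexpression samples thus lay inside the range set by the controls, and control replicate 3 stood above the rest. The median of the fatty acid enzymes was -0.09, 0.02 and 0.07 in the controls and 0.06, -0.07 and -0.14 in the overexpression samples. The difference between the branches, sterol minus fatty acid, was -0.08, -0.11 and 0.19 in the controls and -0.15, -0.03 and 0.01 in the overexpression samples, and these groups overlapped. Without control replicate 3 the median changes were 0.03 for the sterol enzymes and 0.02 for the fatty acid enzymes, so that both signs turned without that sample, and the fatty acid median was also above 0, at 0.01, without overexpression replicate 3.

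**Figure D3:**
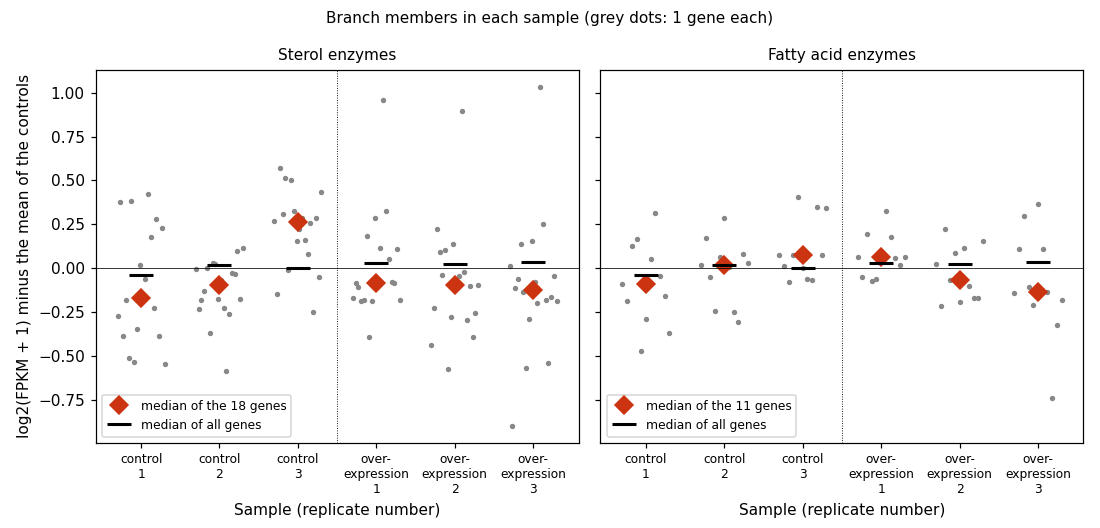
Members of the sterol branch (left, 18 genes) and the fatty acid branch (right, 11 genes) in each sample, as log2(FPKM + 1) minus the mean of the controls, with grey dots for genes, red diamonds for branch medians and black bars for the median of all genes. The sterol median reaches 0.26 in control replicate 3 and lies between -0.17 and -0.08 in the other samples.

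The log2 change of a gene, a difference of group means, was set beside the range of its single control values. It was smaller than that range for all 18 sterol enzymes, for 9 of the 11 fatty acid enzymes and for 82.5% of all genes. Most genes thus met this condition, and the sterol enzymes share the same control libraries. The range among controls was larger than the range among overexpression samples for 17 of 18 sterol enzymes (94.4%), for 63.6% of the fatty acid enzymes and for 64.6% of all genes. The highest of the 6 samples was control replicate 3 for 11 of 18 sterol enzymes (61.1%), for 4 of 11 fatty acid enzymes (36.4%), for 4 of 5 regulators and for 16.9% of all genes. The sterol enzymes were Acat2, Mvk, Pmvk, Mvd, Fdps, Fdft1, Lss, Cyp51, Nsdhl, Ebp and Dhcr7. Among them Mvk, Mvd, Fdps and Dhcr7 were 2.01, 2.11, 2.06 and 2.07 times as high in control replicate 3 as in control replicate 1. The other 7, Hmgcs1, Idi1, Sqle, Tm7sf2, Msmo1, Hsd17b7 and Sc5d, were highest in another sample. These counts were taken after the values had been seen and carry no test.

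Base composition was set beside this pattern, and its part in it was not tested. The median GC content of the most abundant transcript was 52.2% for the 11 enzymes highest in control replicate 3 and 43.9% for the other 7. The ranges overlapped, at 45.8% to 59.6% and 41.9% to 56.4% in that order. Across 11279 genes, the deviation of a sample from the mean of all samples had a Pearson correlation with GC content of -0.54, 0.30 and 0.38 in control replicates 1, 2 and 3 and of -0.28, 0.07 and 0.12 in the overexpression samples. With log2 length it was 0.38, -0.15 and -0.29 in the controls and 0.23, 0.14 and -0.26 in the overexpression samples. The sterol medians of control replicates 1, 2 and 3 were -0.17, -0.10 and 0.26. Genes within a sample share one library and are not independent replicates. After trends with length and GC content were removed, the sterol median was -0.14, -0.10 and 0.22 in control replicates 1, 2 and 3. It was -0.08, -0.14 and -0.20 in the overexpression samples. These values carry no test of a cause.

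The listed transcripts of some members differed between samples more than the gene sums did. The 35 genes had 73 listed transcripts, 18 genes with 1 and 17 with several. With each transcript tested alone, 3 were called higher beside 3.07% of all transcripts, and 3 were called lower beside 2.51% of all transcripts. None reached an adjusted p under 0.05. The share of all transcripts whose groups did not overlap was not counted. The higher transcripts were Tm7sf2-001, Dhcr7-201 and Pmvk-002, and the lower ones were Fdps-001, Dhcr7-001 and Srebf1-007.

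Dhcr7 had both a higher and a lower transcript. Its other listed transcript, Dhcr7-004, was at 2.31 FPKM in overexpression replicate 2 and at 0 to 0.696 FPKM in the other samples. Dhcr7-201 was at 9.74, 0.458 and 0.785 FPKM in the controls and at 13.4, 12.0 and 13.4 FPKM in the overexpression samples. Dhcr7-001 was listed at 15.6 and 19.9 FPKM in control replicates 2 and 3 and at 0 in control replicate 1 and in all overexpression samples. Control replicate 1 therefore had the same main transcript as the overexpression samples, and a listed 0 may be a failed estimate. In the GENCODE annotation of GRCm38 both transcripts have 9 exons, of which 7 share both ends, and they differ mainly in exon 1. Exon 1 of Dhcr7-201 is chr7:143823167-143823540 (374 bases) and exon 1 of Dhcr7-001 is chr7:143829626-143829739 (114 bases), so their division rests on reads over a short part of the RNA. The sum of the listed Dhcr7 transcripts was 10.2, 16.7 and 21.1 FPKM in the controls and 13.4, 14.3 and 13.4 FPKM in the overexpression samples (log2 change -0.15, SE 0.24, limma adjusted p = 0.89).

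Srebf1 had 3 listed transcripts with different starts. Srebf1-007 was at 5.39, 5.69 and 7.18 FPKM in the controls and at 3.86, 1.61 and 4.07 FPKM in the overexpression samples (log2 change -0.81, SE 0.31, limma adjusted p = 0.65). Srebf1-005, from the start farther upstream, was at 7.93, 9.85 and 9.77 FPKM in the controls and at 6.83, 6.40 and 6.43 FPKM in the overexpression samples, and was not called. For each of these transcripts every overexpression sample was below every control, which held for 6.24% of all genes and was not counted over all transcripts. Srebf1-006, the most abundant at 61.1% of the gene, was at 15.7, 21.2 and 21.8 FPKM in the controls and at 19.2, 24.8 and 15.2 FPKM in the overexpression samples, with overlapping groups.

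Fdps-001 was at 46.0, 71.7 and 96.9 FPKM in the controls and at 45.5, 34.6 and 38.4 FPKM in the overexpression samples (log2 change -0.79, SE 0.28, limma adjusted p = 0.65). Its groups did not overlap, but control replicate 1 and overexpression replicate 1 nearly met. Fdps-002, the larger share of the gene at 57.7%, was not called (log2 change -0.33). Pmvk-002 was a minor transcript, at 0.221, 0.512 and 0.820 FPKM in the controls and 1.15, 1.72 and 1.74 FPKM in the overexpression samples.

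**Figure D4:**
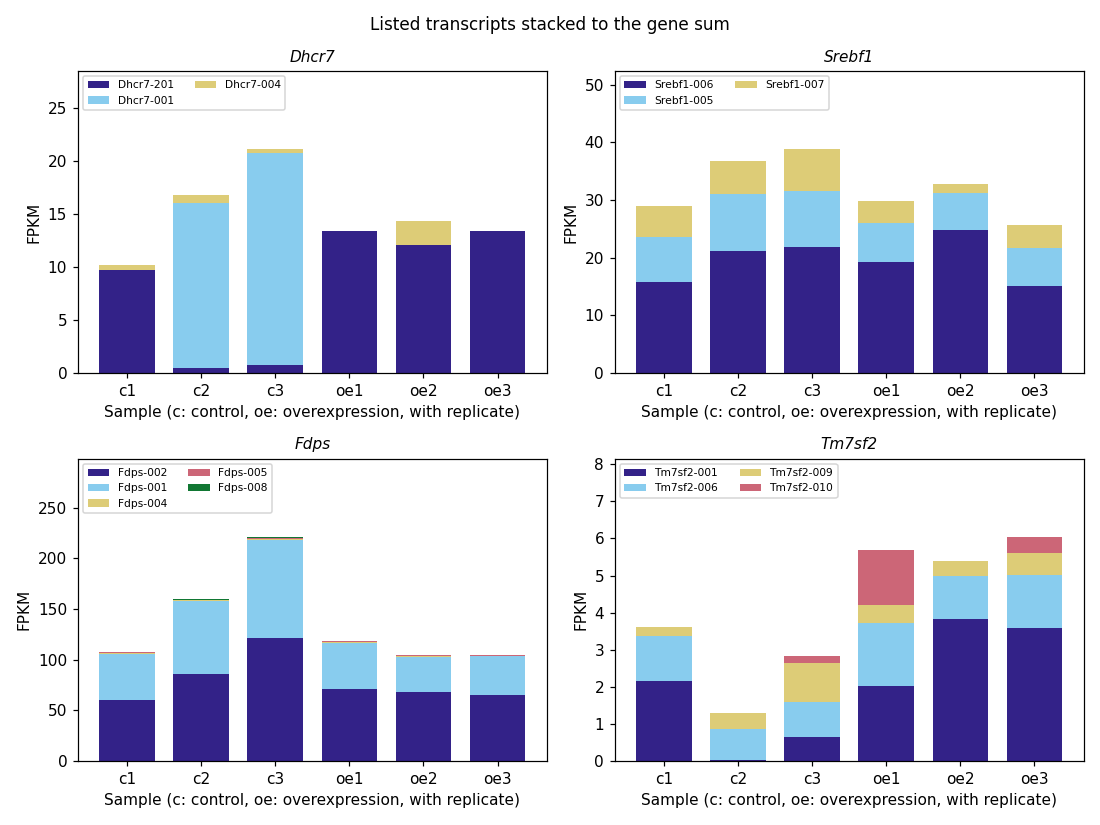
Listed transcripts of Dhcr7, Srebf1, Fdps and Tm7sf2 in each sample, in FPKM, stacked to the gene sum (bars start at 0; c, control; oe, overexpression). Dhcr7-201 makes up most of the gene in control replicate 1 and the overexpression samples, and Dhcr7-001 in control replicates 2 and 3.

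Other genes of the pathway were taken from lists of known function. Of 13 measured genes that process SREBP or turn over sterol enzymes, 1 was called higher beside 2.49% of all genes and 0 lower beside 2.23%, and the median log2 change was 0.16 beside 0.03 for all genes. The called gene was Ube2g2, a ubiquitin-conjugating enzyme of endoplasmic reticulum degradation, at 25.6, 16.4 and 18.9 FPKM in the controls and at 29.0, 34.1 and 33.4 FPKM in the overexpression samples (log2 change 0.66, SE 0.19, limma adjusted p = 0.45). Without control replicate 2 its log2 change was 0.52 and the call was lost. Every overexpression sample was above every control for 4 of the 13 genes, beside 10.1% of all genes, namely Ube2g2 and, without a call, Nploc4, Faf2 and Vcp (log2 changes 0.40, 0.20 and 0.20). Vcp and Nploc4 extract proteins from the membrane together with Ufd1l, which had a log2 change of -0.13 and overlapping groups. Of 16 measured genes of fatty acid activation and glyceride synthesis, 0 were called higher beside 2.49% of all genes and 1 lower beside 2.23%. The lower gene was Mgll, the monoglyceride lipase, at 5.63, 11.1 and 12.8 FPKM in the controls and at 6.47, 6.35 and 3.12 FPKM in the overexpression samples, with control replicate 1 among the latter (log2 change -0.76, SE 0.33, limma adjusted p = 0.55). Mgll stood at the threshold and lost its call under 9 of the 18 other settings. Among them were the smaller pseudocounts and leaving out control replicate 2 (log2 change -0.65), control replicate 3 (-0.55) or overexpression replicate 3 (-0.48). It kept the call with the most abundant transcript (log2 change -2.74, limma adjusted p = 0.12). The call was also kept without control replicate 1 (log2 change -1.08, limma adjusted p = 0.23). Of the acyl-CoA synthetases in this list, Acsl5 was above every control in all overexpression samples (log2 change 0.33) and Acsl1 below (log2 change -0.32), and neither was called. Of the 16 genes, 1 was thus above every control beside 10.1% of all genes, and 1 below beside 6.24%.

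None of the 12 measured genes of sterol uptake, storage and efflux was called, nor any of the 13 of the isoprenoid branch after farnesyl diphosphate or the 16 other genes of fatty acid synthesis and elongation. Over all genes 2.49% were called higher and 2.23% lower. The median log2 changes of the lists were -0.03, 0.00 and -0.07. Every overexpression sample was below every control for 2, 0 and 1 genes of these lists in that order, beside 6.24% of all genes. Every overexpression sample was above every control for 0, 2 and 0 genes, beside 10.1% of all genes. The lower uptake genes were Lipa, the lysosomal acid lipase that frees cholesterol from its esters (log2 change -0.32), and Lrp1 (log2 change -0.33). The higher isoprenoid genes were Pdss1, which builds the tail of coenzyme Q (log2 change 0.47), and Coq2 (log2 change 0.18).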

How the data were processed

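The series held RNA profiles of 6 polyA libraries from MPC5 cells, 3 with Dlx6-os1 overexpression and 3 controls. The authors deposited FPKM per transcript. FastQC, HISAT2 and StringTie are listed in the submitters' processing notes with genome build mm10, and their versions were not given in the sources used here. In all, the deposited table listed 21849 transcripts, and the larger of the group means was at least 0.5 FPKM for every one, so that the filter at 0.5 FPKM removed none. Read depth was unknown, and no counts were available to give an interval or a floor. The sums of listed FPKM per sample are in the report.

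FPKM of transcripts with the same symbol were summed to 11308 genes. Changes in log2(FPKM + 1) were tested by a moderated linear model of limma (version 3.58.1, R version 4.3.3) that let the variance follow the mean level, in a two-sided fit over all genes and adjusted by Benjamini-Hochberg over all of them. The pseudocount of 1 understates the change of low genes. Groups were taken from the labels, and no sample was left out or imputed. The script was tested on simulated data. Members and lists were chosen with earlier results of these data known. Some marker genes are not reported here. All members were named. Values in every sample were given for called members, members with groups that did not overlap and the 3 of each role with the smallest p, and of the other lists for called genes, with up to 4 more named. Dhcr7 was detailed after its values were seen. Other pseudocounts, filters, scalings, variance models, a replicate block, the most abundant transcript and each sample left out were tried as alternatives. The removal of length and GC trends (polynomials of degree 3) and the test of each transcript alone were added after seeing the data. Length and GC content were known for 99.7% of genes. Promoter sequence came from RefSeq tables of GRCm38.p6.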

Additional observations from a re-analysis of the deposited data

How the results depend on the processing

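Tm7sf2 was called higher under all 18 other settings, with log2 changes from 0.67 (without control replicate 2) to 1.23 (pseudocount 0.1) and limma adjusted p from 0.17 to 0.85. With the most abundant transcript in place of the gene sum, 2 members were called higher, because Dhcr7 turned from -0.15 to 2.20 as the test then followed Dhcr7-201 alone, and the fatty acid median was -0.14. Leaving out each sample in turn gave 0 to 1 members called lower, the 1 being Fdps (log2 change -0.78) without control replicate 1. The same step moved the sterol median between -0.18 and 0.03, the fatty acid median between -0.06 and 0.02, and their difference between -0.13 and 0.01. Among the 35 members, 16 kept their sign under every setting and 19 did not (45 of 630 pairs of member and setting differed in sign). The setting without a filter could not differ from the main fit, since the filter removed nothing. Control and overexpression samples with the same number deviated together with correlations of 0.29, 0.02 and 0.29. For samples with different numbers the correlations ran from -0.31 to 0.11. Whether the numbers pair the samples was therefore not settled, and the main fit did not pair them. With a replicate block, Tm7sf2 kept its log2 change of 0.96, 1 member was called higher and 0 lower, and over all genes 349 were higher and 294 lower. Without moderation of the variances the counts over all genes fell to 145 higher and 103 lower, and other scalings gave 361 and 245 (rescaled sums) and 251 and 271 (quantile normalization). Depth was unknown, so precision rests on 3 samples a group, and low transcripts such as those of Tm7sf2 carry the least support.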

Other observations

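Of 22 measured genes of fatty acid oxidation, 0 were called higher beside 2.49% of all genes and 0 lower beside 2.23%. Their median log2 change was -0.04 beside 0.03 for all genes. Acads, the short-chain acyl-CoA dehydrogenase, was at 43.0, 55.3 and 73.9 FPKM in the controls and at 40.9, 48.2 and 44.3 FPKM in the overexpression samples. Acadm, its medium-chain relative, was at 33.6, 27.3 and 19.5 FPKM in the controls and at 22.7, 22.8 and 17.2 FPKM in the overexpression samples. In the controls these related genes thus ran in opposite order, with Acads highest and Acadm lowest in replicate 3, and both groups overlapped.

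The transcripts of Fasn were divided differently in overexpression replicate 3. Fasn-006 was at 27.5, 36.7 and 48.6 FPKM in the controls and at 34.6 and 24.3 FPKM in overexpression replicates 1 and 2, and was listed at 0 in overexpression replicate 3, where Fasn-001 was at 46.6 FPKM. Neither transcript was called.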
